A study of Mus musculus with 10 samples.

Results

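The comparison set mouse ESCs in which AMPK was disrupted against ESCs in which it was left intact, with 4 libraries in each group and 8 of the 10 libraries of the series in all. The AMPK-deficient group held the AKO and DKO libraries and the AMPK-intact group held the naïve (J1) and GKO libraries, as the sample labels name them. The remaining libraries, from primed ESCs, were not used except in an alternative fit. The question was which transcripts moved the same way in both AMPK-deficient lines, when each was set against the line that shares its Gys1 status. RNA was sequenced in bulk, and the authors' TPM, an abundance per transcript length scaled to a fixed sum within a library, was the quantity compared.

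J1 is a mouse ESC line, and naïve ESCs here are J1 cells kept on gelatin with serum, LIF, the MEK inhibitor PD0325901 and the GSK3 inhibitor CHIR99021. AKO was made from these cells with CRISPR and homology-directed repair plasmids against Prkaa1, and cells that took up the construct were sorted for its red fluorescent protein. GKO carries a small insertion or deletion in Gys1, the glycogen synthase gene, and DKO carries both disruptions. Prkaa2, which encodes the other catalytic subunit, was not targeted. Each line is represented by 2 libraries. The methods speak of pooled clones checked for Prkaa1 and of several single clones for Gys1, but which of them gave each library is not stated, so that the genotype of a line and other features of its cells cannot be told apart. The pair tests call any difference between separately derived lines, whatever its source. The labels name 1 Illumina library kit for all lines, whereas the methods describe an MGI kit and list only J1, GKO and primed cells, so that all AMPK-intact and no AMPK-deficient lines are in that list. If the lines were prepared apart, preparation and AMPK status cannot be told apart in either pair. Nothing in the sources used here says that the libraries of a line came from separate cultures, so p-values measure only the spread between these samples. The median absolute difference between the libraries of a line was 0.06 on the log2(TPM + 1) scale in naïve ESCs and 0.07 in each of AKO, GKO and DKO. TPM keeps no record of sequencing depth, which was therefore unknown. The listed TPM summed to 517712 and 531306 in GKO and to 531062 and 559117 in DKO, below the lowest sum among naïve ESCs and AKO, which was 565209.

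AMPK is a kinase built from a catalytic α subunit, a scaffolding β subunit that binds glycogen, and a γ subunit that senses AMP and ADP. When energy runs low it is phosphorylated by LKB1 or CAMKK2 and then restrains acetyl-CoA carboxylase and mTORC1 while promoting autophagy and the oxidation of fatty acids. Most of these steps are changes in protein phosphorylation, so that the mRNA of an AMPK substrate need not move when the kinase is lost. In ESCs the pathway has been linked to the balance between fatty acid synthesis and oxidation and to the exit from the naïve state.

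The targeted gene was examined first. Prkaa1, which encodes AMPKα1 and lies on the plus strand of GRCm39 at chr15:5173186-5211750, had 15.5 and 16.6 TPM in the naïve libraries against 7.24 and 6.94 TPM in the AKO libraries. In GKO it had 12.2 and 11.96 TPM, and in DKO 2.30 and 2.04 TPM. All 4 AMPK-deficient libraries lay below all 4 AMPK-intact libraries, in keeping with their labels. On the log2(TPM + 1) scale, which understates changes of low genes, Prkaa1 fell by 1.07 in AKO against naïve ESCs (SE 0.07, limma adjusted p = 0.00350) and by 2.04 in DKO against GKO (SE 0.07, adjusted p = 1.27e-06). The fall was larger in DKO, with a difference between the pairs of -0.97 (SE 0.10, adjusted p = 2.67e-04). Transcript remained in both lines, and an mRNA level does not measure how much AMPKα1 protein was left. The call in AKO was lost when AKO library 2 was left out (adjusted p = 0.0649, against 3.53e-04 to 0.0649 over the alternatives).

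Among the other AMPK subunits the transcripts moved little in AKO. Prkaa2, the other catalytic subunit, was at 2.38 and 2.41 TPM (naïve ESCs), 2.71 and 2.44 (AKO), 3.27 and 3.29 (GKO) and 3.29 and 3.10 (DKO). These levels overlapped between DKO and GKO, and the difference was 0.07 in AKO and -0.03 in DKO (adjusted p = 0.667 and 0.744), with a positive value in DKO under quantile normalization (0.02) and without DKO library 2 (0.0034). Of the β subunits, Prkab2 rose in DKO against GKO by 0.48 (SE 0.06, adjusted p = 2.99e-04) and Prkab1 did not pass in either pair (-0.08 and -0.12). Of the γ subunits, Prkag2 went from 6.19 and 6.30 TPM in GKO to 2.71 and 3.17 TPM in DKO, a fall by 0.88 (SE 0.09, adjusted p = 1.53e-04), while in AKO it differed by 0.13 (SE 0.09, adjusted p = 0.546). Prkag1 was the most abundant subunit at 39.2 to 49.7 TPM in the 8 libraries and differed by -0.08 in both pairs. Gys1 itself was at 11.5 and 10.8 TPM (naïve ESCs), 12.7 and 12.2 (AKO), 9.70 and 9.98 (GKO) and 12.1 and 11.7 (DKO). It rose in DKO against GKO by 0.25 (SE 0.06, adjusted p = 0.00577) and did not pass in AKO (0.15, SE 0.06, adjusted p = 0.245). All 4 AMPK-deficient libraries lay above all 4 AMPK-intact libraries for Gys1. The level of its transcript therefore does not show the disruption that the labels give to GKO and DKO, and a small insertion or deletion need not lower an mRNA. Prkag3 did not reach 1 TPM in 2 libraries and was not tested.

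As groups of 4 against 4, no gene passed. Genes had to reach 1 TPM in 2 or more of the 10 libraries, which 12060 did. Among them limma called 0 (0%) at an adjusted p under 0.05 and 1268 (10.5%) at an unadjusted p under 0.05, of which 556 were higher and 712 lower in the AMPK-deficient group. The lowest adjusted p was 0.268, shared by Fos and Gfra4. Gfra4, a receptor of the GDNF family, was at 1.57 and 1.83 TPM (naïve ESCs), 0.801 and 0.838 (AKO), 2.14 and 2.17 (GKO) and 0.796 and 0.726 (DKO), so every AMPK-deficient library was below every AMPK-intact library. Its difference was -0.70 (SE 0.08). In this fit the distance between naïve ESCs and GKO enters the spread, and the median SE was 0.12 against 0.07 for a pair of lines. All 4 AMPK-deficient libraries lay above the intact libraries for 392 genes (3.25%) and below them for 502 (4.16%). With Gys1 status as a covariate, 48 genes were called (0.398%), 15 of them higher and 33 lower. The average of both pair differences, with a spread taken only from the libraries within lines, called 4967 genes.

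Set pair by pair, the lines differed in how many genes moved. In AKO against naïve ESCs 54 genes rose (0.448%) and 77 fell (0.638%). In DKO against GKO 3321 rose (27.5%) and 3121 fell (25.9%), a balance that turned to 2541 rises and 3530 falls with TPM rescaled to the same sum and to 3134 and 3303 with median-ratio scaling. The median absolute difference over all tested genes was 0.07 in AKO and 0.20 in DKO, and for 4499 genes (37.3%) the difference between the pairs itself passed the test. A total of 20 genes rose in both pairs (0.166%) and 36 fell in both (0.299%). These 56 genes made up 42.7% of the calls in AKO and 0.869% of those in DKO, and a further 40 genes were called in opposite directions (0.332%). The remaining 35 calls in AKO did not pass in DKO. The 131 calls in AKO became 1 without AKO library 2, 2 without AKO library 1, 3 without naïve library 2, 4 without naïve library 1, 47 without either GKO library and 74 without either DKO library.

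The changes shared by both lines were small. The median rise of the 20 genes was 0.29 in AKO and 0.37 in DKO, and the median fall of the 36 was -0.38 and -0.44, where the median over all tested genes was -0.01 and 0.01. Among the 56, Fos and Prkaa1 alone differed by at least 1 in both pairs. For 19 of the 56 genes the size of the change differed between the pairs by the test of that difference, which 37.3% of all tested genes passed. In 29 of the 56 the groups of 4 did not overlap, against 3.25% (higher) and 4.16% (lower) of all tested genes. With Gys1 status as a covariate 34 of the 56 were called. Both counts follow in part from how the 56 were picked, by calls of the same sign in both pairs. They are therefore not separate support for these genes. The count of 56 depended on the libraries of AKO and naïve ESCs, since it was 0 without AKO library 2, 1 without AKO library 1, 2 without naïve library 2 and 3 without naïve library 1. It was 21 and 22 without GKO library 1 or 2 and 31 and 32 without DKO library 1 or 2, with the lone library of a line assumed to vary like the others. The differences of some genes moved less than the calls. In AKO that of Prkaa1 ran from -1.17 to -1.03 over the alternatives, that of Peg10 from -0.65 to -0.53 and that of Cdx1 from -0.44 to -0.40. Others moved more, that of Fos from 1.16 to 1.78 in AKO and that of Spry2 from -0.28 to -0.12 in DKO. When TPM was rescaled to the same sum over the listed genes, 4 rises and 30 falls were called in both pairs (11.8% rises, against 35.7%), and in AKO 28.8% of the calls were rises, against 41.2%.

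**Figure D1:**
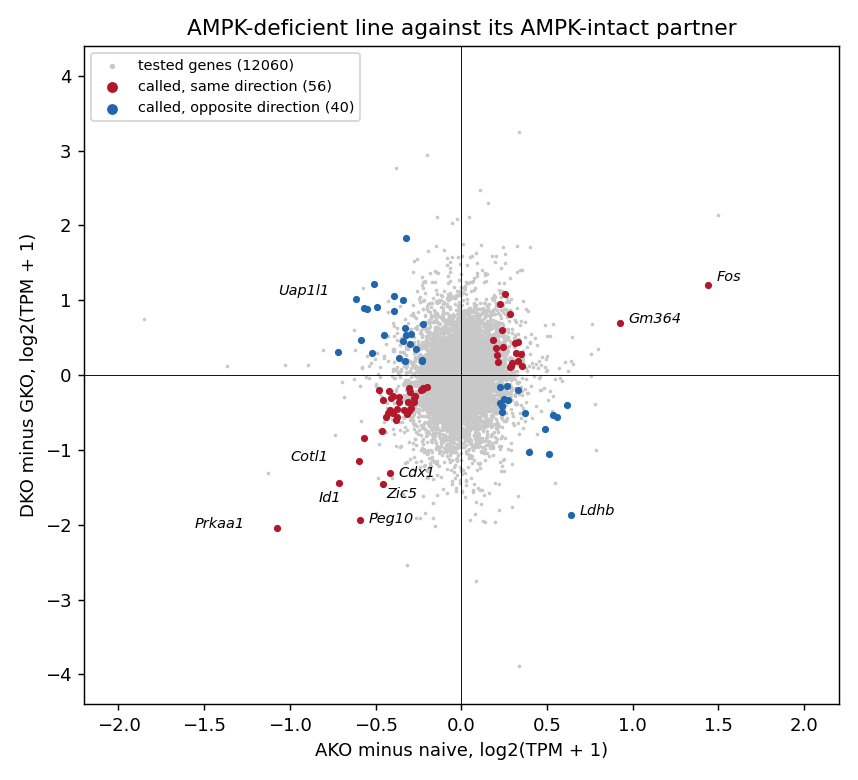
Difference in log2(TPM + 1) of each of the 12060 tested genes in AKO against naïve ESCs (horizontal) and in DKO against GKO (vertical), each from the means of 2 libraries per line. Red points are the 56 genes called the same way in both pairs, blue points the 40 called in opposite ways; the cloud is wider vertically, with a median absolute difference of 0.20 against 0.07.

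Fos had the largest rise among the 20 genes that rose in both pairs. It encodes a subunit of the AP-1 transcription factor that is induced within minutes of growth factor or cAMP signals. Its TPM were 2.80 and 1.58 (naïve ESCs), 7.51 and 7.48 (AKO), 1.76 and 1.70 (GKO) and 5.06 and 5.50 (DKO). Every AMPK-deficient library was above every AMPK-intact library, and the naïve libraries differed from each other more than those of the other lines. Fos rose by 1.44 in AKO (SE 0.16, adjusted p = 0.0121) and by 1.20 in DKO (SE 0.16, adjusted p = 4.10e-04), and the difference between the pairs was within the error (-0.24, SE 0.22, adjusted p = 0.429). The call in AKO was lost without AKO library 1 or AKO library 2, with no filter on low values and with the primed libraries in the fit (adjusted p up to 0.227, from 0.00120 over the alternatives). Egr1, a zinc finger factor of the same early class, was at 39.2 and 22.1 TPM (naïve ESCs), 88.1 and 81.7 (AKO), 8.93 and 4.24 (GKO) and 31.9 and 29.8 (DKO). Each AMPK-deficient line was above its partner, but DKO lay within the range of the naïve libraries. Egr1 rose in DKO by 2.14 (SE 0.31, adjusted p = 7.52e-04), and in AKO its difference of 1.49 did not pass (SE 0.31, adjusted p = 0.0697), although it did in 2 of the alternatives (adjusted p from 0.0328 to 0.281). The medium described for the lines holds a MEK inhibitor, and ERK activity was not measured in these libraries. Of 18 tested ERK targets, the list to which both belong, 2 rose and 2 fell in AKO and 7 rose and 4 fell in DKO, with medians of 0.00 and 0.15, where 0.448% and 0.638% of all tested genes were called in AKO and 27.5% and 25.9% in DKO. Fos was the only member called as higher in both.

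Spry2 and Spry4, feedback inhibitors of receptor tyrosine kinases, belong to the same list and went another way. Spry2 was at 24.2 and 22.3 TPM (naïve ESCs), 16.1 and 16.6 (AKO), 70.6 and 63.0 (GKO) and 59.0 and 56.8 (DKO). It was lower in each AMPK-deficient line than in its partner, and GKO and DKO were above naïve ESCs and AKO. It fell by 0.48 in AKO (SE 0.06, adjusted p = 0.0192) and by 0.20 in DKO (SE 0.06, adjusted p = 0.0261), and the call in DKO was lost without GKO library 1, DKO library 1 or DKO library 2 and with no filter on low values (adjusted p up to 0.160, from 0.0106 over the alternatives). In AKO the call of Spry2 was lost without any of the naïve or AKO libraries and with no filter (adjusted p up to 0.152, from 0.00815). The difference of Spry2 in DKO ran from -0.28 to -0.12 over the alternatives. Spry4 fell by 0.52 in AKO and rose by 0.29 in DKO (adjusted p of 0.0121 for the fall and 0.00306 for the rise).

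The promoter of Fos is shown because Fos had the largest rise shared by both pairs. The bases upstream of its start, from RefSeq in GRCm38.p6 at chr12:85473640-85473889 on the plus strand, hold 2 copies of TGACG, the half-site of the cAMP response element. The capitals mark these copies, whose first bases lie 129 and 66 bases before the start.
Fos: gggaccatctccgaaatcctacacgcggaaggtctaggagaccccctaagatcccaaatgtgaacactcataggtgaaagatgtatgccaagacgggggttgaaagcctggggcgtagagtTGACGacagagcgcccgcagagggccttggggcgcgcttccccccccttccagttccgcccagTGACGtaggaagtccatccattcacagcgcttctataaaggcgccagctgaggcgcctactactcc
Searched on both strands over the 250 bases upstream, TGACG was present for 6 of the 18 rises in the RefSeq promoter table (33.3%) and 7 of the 26 falls in it (26.9%), against 30.8% of the 9506 tested genes and 19.8% of the 27025 gene symbols in the table. The E-box CACGTG was present for 4 of the 18 rises and 5 of the 26 falls, against 10.2% of the tested genes and 6.86% of all symbols. A gene was counted when any of its listed starts held the motif, and a match is a description of the letters and not of a bound site.

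Several further genes were higher in both pairs without passing in AKO at the settings used, although with a mean of at least 5 TPM as the filter Fkbpl and Ppp1r1a passed there (adjusted p = 0.0299 and 0.0394, up to 0.281 and 0.296 over the alternatives). Fkbpl, an immunophilin-like cochaperone, was at 6.59 and 7.60 TPM (naïve ESCs), 10.1 and 13.4 (AKO), 7.79 and 8.96 (GKO) and 12.3 and 12.5 (DKO), with the 4 AMPK-deficient libraries above the 4 intact ones. It differed by 0.65 in AKO (SE 0.13, adjusted p = 0.0609) and rose by 0.52 in DKO (SE 0.13, adjusted p = 0.00949), a call that was lost without GKO library 1 (adjusted p = 0.0636, from 0.00266 over the alternatives). Ppp1r1a, an inhibitor of protein phosphatase 1 that is switched on by PKA, differed by 0.39 in AKO (SE 0.08, adjusted p = 0.0684) and rose by 0.38 in DKO (SE 0.08, adjusted p = 0.00481). Its libraries ran from 4.24 to 4.47 TPM in the intact group and from 5.57 to 6.53 TPM in the deficient group, which did not overlap. Ddit4l, an inhibitor of mTORC1, was at 1.97 and 1.54 TPM (naïve ESCs), 2.76 and 2.95 (AKO), 4.69 and 3.70 (GKO) and 7.21 and 7.23 (DKO). It was higher in each deficient line than in its partner, by 0.49 in AKO, where it did not pass (adjusted p = 0.0861), and by 0.67 in DKO (SE 0.11, adjusted p = 0.00134). Atf7, a factor of the CREB and ATF family, differed by 0.41 and 0.55, Sohlh2, a germ cell factor, by 0.40 and 0.45, and Pet117, which assembles cytochrome c oxidase, by 0.36 and 0.99. These passed in DKO only, and for Atf7 and Sohlh2 not without GKO library 2, for Atf7 not with no filter on low values either (adjusted p up to 0.0698 and 0.0706, from 0.00115 and 0.00579), nor for Sohlh2 without DKO library 2. Sohlh2 was at 10.9 and 11.8 TPM (naïve ESCs), 15.9 and 14.6 (AKO), 2.05 and 1.55 (GKO) and 2.50 and 3.12 (DKO). Both DKO libraries thus lay far below both naïve libraries. Catip differed by 0.40 in AKO (adjusted p = 0.134) and rose by 1.71 in DKO (adjusted p = 1.41e-05), a larger change in DKO by 1.31 (SE 0.15, adjusted p = 5.80e-04). Over the alternatives the difference in AKO ran from 0.24 to 0.56 for Catip and from 0.20 to 0.52 for Pet117.

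Gm364 rose in both pairs, although it was far lower in GKO and DKO than in naïve ESCs and AKO. Naïve ESCs had 8.19 and 7.97 TPM and AKO 17.4 and 15.1, but GKO had 0.526 and 0.541 TPM and DKO 1.61 and 1.35. The AMPK-deficient line was the higher in each pair, while both DKO libraries lay far below both naïve libraries. The rise was 0.92 in AKO (SE 0.09, adjusted p = 0.0121) and 0.69 in DKO (SE 0.09, adjusted p = 3.64e-04), and in AKO the call was lost without any of the naïve or AKO libraries (adjusted p up to 0.0914, from 0.00320). Gm364 and Gm18336, which fell by 0.43 and 0.51, had no position in the annotation used here, and values of such predicted genes are uncertain where RSEM divided reads among similar transcripts.

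Ranked by the smaller of both pair differences, the falls were led by Prkaa1 and then by Id1, a target of BMP signaling that blocks basic helix-loop-helix factors and holds back differentiation of ESCs. Id1 was at 19.8 and 22.8 TPM (naïve ESCs), 13.3 and 11.9 (AKO), 27.4 and 31.1 (GKO) and 9.11 and 11.2 (DKO). All 4 AMPK-deficient libraries were below all 4 AMPK-intact libraries, and the gap was wider between DKO and GKO. It fell by 0.71 in AKO (SE 0.11, adjusted p = 0.0332) and by 1.44 in DKO (SE 0.11, adjusted p = 2.89e-05), and the changes differed by -0.73 (SE 0.15, adjusted p = 0.00802). The call in AKO was lost in 9 of the alternatives, among them the omission of any naïve or AKO library (adjusted p up to 0.186, from 0.0135).

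Cotl1, which binds filamentous actin, was at 10.9 and 11.8 TPM (naïve ESCs), 7.17 and 7.12 (AKO), 34.7 and 34.8 (GKO) and 15.2 and 15.1 (DKO). Each AMPK-deficient line was below its partner, but DKO was above naïve ESCs. It fell by 0.60 in AKO (SE 0.05, adjusted p = 0.0121) and by 1.15 in DKO (SE 0.05, adjusted p = 3.62e-06), a difference between the pairs of -0.55 (SE 0.07). Without naïve library 2 or either AKO library the call in AKO was lost (adjusted p up to 0.0849, from 0.00320).

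Peg10 and Cdkn1c, a pair of imprinted genes, were lowest in the AMPK-deficient lines. Peg10, a paternally expressed gene derived from a retrotransposon and needed in the placenta, was at 19.9 and 19.6 TPM (naïve ESCs), 12.3 and 13.4 (AKO), 58.4 and 52.5 (GKO) and 13.7 and 13.8 (DKO). GKO stood far above the other lines, and AKO and DKO lay close together below naïve ESCs. It fell by 0.59 in AKO (SE 0.06, adjusted p = 0.0121) and by 1.93 in DKO (SE 0.06, adjusted p = 1.22e-06), with a difference of -1.34 (SE 0.09, adjusted p = 5.31e-05). In AKO it did not pass without any of the naïve or AKO libraries or with the primed libraries in the fit (adjusted p up to 0.216, from 0.00443). Cdkn1c, a maternally expressed inhibitor of cyclin-dependent kinases, was at 1.91 and 2.63 TPM (naïve ESCs), 1.65 and 0.999 (AKO), 6.66 and 7.10 (GKO) and 0.999 and 1.41 (DKO). The groups of 4 did not overlap, and the call was made in DKO (fell by 1.84, SE 0.16, adjusted p = 5.49e-05) and not in AKO (-0.50, SE 0.16, adjusted p = 0.182). The difference of Cdkn1c in AKO ran from -0.76 to -0.30 over the alternatives. Of 21 tested imprinted genes, 0 rose and 1 fell in AKO and 6 rose and 11 fell in DKO, with medians of -0.04 and -0.21. Over all tested genes 0.448% rose and 0.638% fell in AKO and 27.5% rose and 25.9% fell in DKO.

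Cdx1, Zic5, Gbx2 and Tubb3 fell in both pairs and belong to lists of development or pluripotency. Cdx1, a caudal homeobox gene and target of Wnt signaling, was at 29.6 and 29.0 TPM (naïve ESCs), 22.0 and 21.3 (AKO), 63.6 and 66.5 (GKO) and 25.5 and 25.6 (DKO). The 4 AMPK-deficient libraries were below the 4 intact ones. It fell by 0.42 in AKO (SE 0.04, adjusted p = 0.0121) and by 1.31 in DKO (SE 0.04, adjusted p = 1.19e-06), with a difference of -0.90 (SE 0.06). Zic5, a zinc finger factor of the primed epiblast and neural plate, was at 6.22 and 5.61 TPM (naïve ESCs), 3.99 and 4.06 (AKO), 9.99 and 9.57 (GKO) and 3.14 and 2.76 (DKO), again without overlap of the groups of 4. It fell by 0.46 (SE 0.08, adjusted p = 0.0426) and by 1.45 (SE 0.08, adjusted p = 6.30e-06), and the changes differed by -0.99 (SE 0.11, adjusted p = 4.06e-04). It lies on chromosome 14 in a segment whose median was lower in AKO, described below. Gbx2, a homeobox factor induced by LIF that sustains the naïve state, was at 14.95 and 14.02 TPM (naïve ESCs), 10.8 and 11.3 (AKO), 18.0 and 17.3 (GKO) and 13.7 and 13.4 (DKO). It fell by 0.36 in each pair (SE 0.05, adjusted p = 0.0304 in AKO and 8.95e-04 in DKO), the difference between the pairs was 0.00 (SE 0.08), and the groups of 4 did not overlap. Tubb3, a tubulin of neurons, fell by 0.30 in AKO and by 0.48 in DKO. In AKO the calls of Cdx1, Zic5, Gbx2 and Tubb3 were each lost without any naïve or AKO library (adjusted p up to 0.155, 0.231, 0.553 and 0.150), and those of Zic5 and Gbx2 in 13 and 11 alternatives in all. The call of Gbx2 in DKO was lost with the primed libraries in the fit (adjusted p = 0.139).

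The lists around these genes are given beside all tested genes, of which 0.448% rose and 0.638% fell in AKO and 27.5% rose and 25.9% fell in DKO. At the AKO shares, lists of this size would hold few or no calls. Of 22 tested genes of naïve pluripotency, 0 rose and 1 fell in AKO, and 8 rose and 3 fell in DKO, with medians of 0.00 and 0.03. Of 21 genes of primed pluripotency, 0 rose and 2 fell in AKO, namely Zic5 and Dnmt3b, and 8 rose and 7 fell in DKO (medians 0.07 and 0.02). Dnmt3b, a de novo DNA methyltransferase, fell by 0.32 in AKO and rose by 0.54 in DKO. Of 11 mesendoderm genes, 0 rose and 1 fell in AKO and 1 rose and 4 fell in DKO, with medians of -0.17 and -0.08, and of 15 Wnt targets 1 rose and 1 fell in AKO and 1 rose and 6 fell in DKO (medians -0.04 and -0.03). T, the brachyury gene of both lists, fell by 1.71 in DKO and differed by -0.17 in AKO (adjusted p = 0.243). Of 10 trophectoderm genes none was called in AKO, and 2 rose and 4 fell in DKO (medians -0.03 and -0.15). Of the 17 genes for 2-cell-like cells 14 were among the listed genes, and none of these passed the filter on low values.

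Among p53 targets, Ccng1 and Trp53inp1 rose in both pairs. Ccng1, the cyclin G1 gene, was at 67.1 and 67.3 TPM (naïve ESCs), 77.4 and 81.5 (AKO), 99.4 and 99.8 (GKO) and 150.04 and 153 (DKO). Trp53inp1, a stress gene linked to autophagy, was at 29.5 and 30.5 TPM (naïve ESCs), 34.7 and 35.6 (AKO), 47.3 and 48.3 (GKO) and 91.8 and 94.0 (DKO). For both genes the deficient line was above its partner, and GKO and DKO were above naïve ESCs and AKO. Ccng1 rose by 0.24 in AKO (SE 0.04, adjusted p = 0.0304) and by 0.60 in DKO (SE 0.04, adjusted p = 1.05e-05), and Trp53inp1 by 0.22 (SE 0.04, adjusted p = 0.0405) and 0.94 (SE 0.04, adjusted p = 2.81e-06). The changes were larger in DKO, by 0.36 and 0.72 (SE 0.05 for each). In AKO they did not pass in 11 and 13 of the alternatives, including the omission of any naïve or AKO library (adjusted p up to 0.543 and 0.288). Of 21 tested p53 targets 2 rose and 0 fell in AKO and 12 rose and 2 fell in DKO, with medians of 0.07 and 0.20. Over all tested genes the shares called were 0.448% (higher) and 0.638% (lower) for AKO and 27.5% and 25.9% for DKO. Plk2 rose by 1.61 in DKO and differed by 0.25 in AKO (adjusted p = 0.240).

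**Figure D2:**
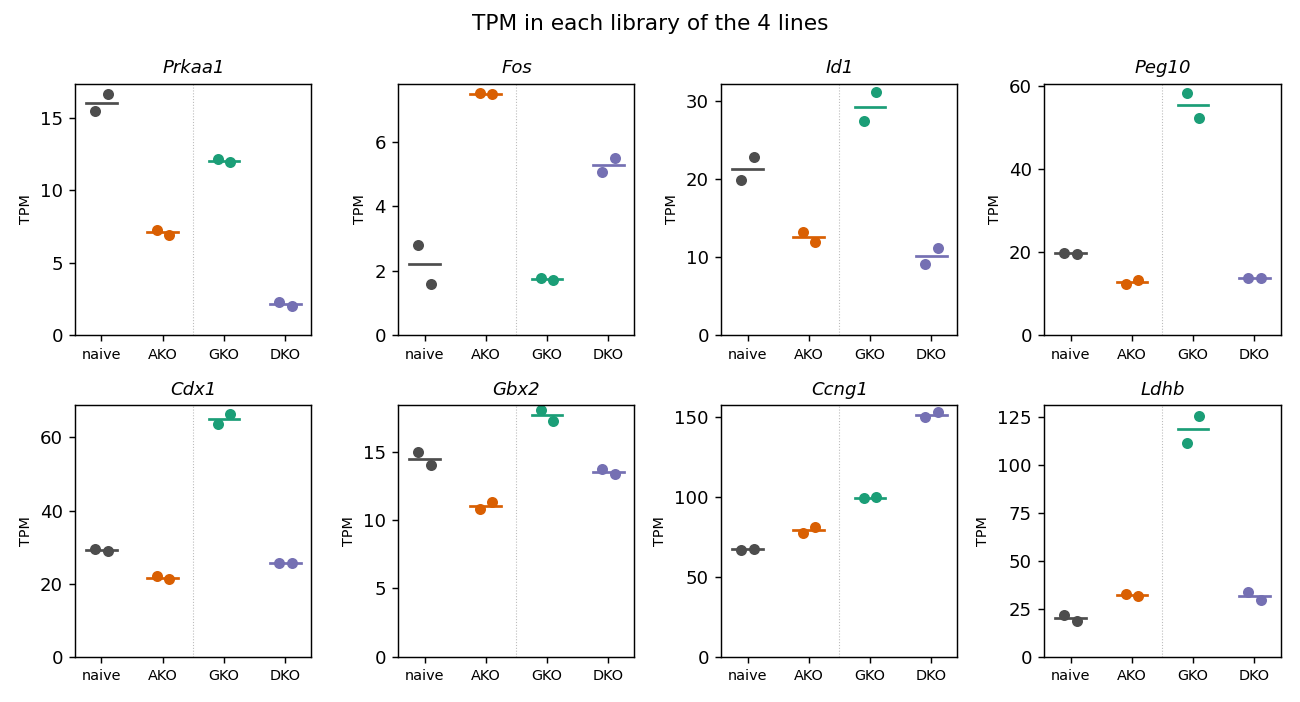
TPM of 8 genes in each of the 2 libraries of naïve ESCs, AKO, GKO and DKO; points are libraries, bars are the means of a line, and the dotted line separates the pairs. Fos was higher and Prkaa1, Id1, Peg10, Cdx1 and Gbx2 lower in all AMPK-deficient than in all AMPK-intact libraries, Ccng1 was higher in each pair with overlap between the groups of 4, and Ldhb went in opposite ways.

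Ak4, an adenylate kinase of the mitochondrial matrix, was at 117 and 113 TPM (naïve ESCs), 92.0 and 92.8 (AKO), 159.6 and 156 (GKO) and 122 and 125 (DKO). Each deficient line was below its partner, and DKO was above naïve ESCs. It fell by 0.31 in AKO and by 0.35 in DKO (SE 0.03 for each). Nadk, the kinase that makes NADP, fell by 0.27 and 0.30, Por, the reductase that feeds electrons to cytochromes P450, by 0.27 and 0.28, and the chaperone Hsph1 by 0.30 and 0.23. The groups of 4 did not overlap for Nadk or Por. Among the rises, the splicing kinase Clk1 rose by 0.35 and 0.28, without overlap of the groups of 4. Ak4, Nadk, Por, Hsph1 and Clk1 were not called in both pairs without any of the naïve or AKO libraries or with the primed libraries in the fit. Por and Clk1 were also lost without either GKO library, and Nadk and Clk1 with no filter on low values. Nadk and Por were lost with no intensity trend and with the replicate block. Il17d, 1700013H16Rik and Gpr180 were lower in each deficient line without passing in AKO (-0.49, -0.48 and -0.44, with the latter pair passing in 1 alternative each) and fell in DKO by 1.37, 0.92 and 0.76. The genes in this paragraph other than Il17d, 1700013H16Rik and Gpr180 were chosen after their values were seen.

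Several metabolic lists leaned one way in DKO against GKO, where 27.5% of all tested genes rose and 25.9% fell. In AKO, with 0.448% and 0.638% of all tested genes called, lists of this size can show little. Of 21 tested genes of fatty acid oxidation, 0 were called in AKO and 16 rose and 0 fell in DKO, with medians of 0.00 and 0.33. Acadvl, the dehydrogenase of very long chains, rose by 0.75 in DKO and Cpt1a, which admits fatty acids to the mitochondrion, by 0.33, where AKO differed by -0.08 and -0.05. Of 17 genes of fatty acid synthesis 0 were called in AKO, and 4 rose and 9 fell in DKO (medians 0.02 and -0.25), where the desaturase Scd1 fell by 0.75 and Fasn by 0.20 while Acss2, which makes acetyl-CoA from acetate, rose by 0.96 and the elongases Elovl1 and Elovl6 by 0.57 and 0.42. Of 24 genes of cholesterol synthesis 1 rose in AKO and 2 rose and 17 fell in DKO (medians 0.00 and -0.31). The tested values of these lists passed the test of the difference between pairs for 11, 9 and 14 genes, in the order given, and 37.3% of all tested genes passed it.

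Lists of the AMPK pathway are given beside the same shares of all tested genes, 27.5% higher and 25.9% lower in DKO and 0.448% and 0.638% in AKO, and no test of a list was made. Of 30 tested direct AMPK substrates 1 rose in AKO and 6 rose and 14 fell in DKO, with medians of 0.00 and -0.17, and of 14 upstream regulators 0 were called in AKO and 4 rose and 5 fell in DKO (medians -0.03 and -0.02). Camkk2, an activating kinase, fell by 0.37 in DKO and Flcn, a lysosomal regulator, rose by 0.32. Of 13 AMPK-related kinases 0 rose and 1 fell in AKO and 2 rose and 6 fell in DKO (medians -0.05 and -0.16), the fall in AKO being that of Brsk2, which was below 1 TPM in all 8 libraries. Of 6 tested AMPK subunits 0 rose and 1 fell in AKO and 1 rose and 2 fell in DKO (medians -0.01 and -0.10). None of the substrates, upstream regulators or related kinases was called the same way in both pairs. Of 36 genes of autophagy and the lysosome 0 rose and 1 fell in AKO and 12 rose and 6 fell in DKO (medians -0.02 and 0.02), and Tfeb, the master regulator of lysosome genes, fell by 0.57 in DKO and differed by -0.25 in AKO (adjusted p = 0.182). Of 27 genes of the mTORC1 pathway and 22 of mitochondrial biogenesis and dynamics 0 were called in AKO, and 9 rose with 5 falls and 5 rose with 5 falls in DKO (medians -0.03 and 0.10, and -0.01 and 0.01). Of 16 tested glycogen genes 0 were called in AKO and 4 rose and 5 fell in DKO (medians 0.00 and 0.06), and of 23 glycolysis genes 1 rose in AKO and 9 rose and 9 fell in DKO (medians 0.04 and 0.10). Of 23 ATF4 and amino acid stress genes 2 rose and 0 fell in AKO and 2 rose and 9 fell in DKO (medians 0.12 and -0.10). The rises in AKO were Slc7a11, the cystine transporter, which was below 1 TPM in all 8 libraries, by 0.46, and Pck2, a mitochondrial carboxykinase, by 0.49.

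Of the 40 genes called in opposite ways, Ldhb had the largest difference between the pairs. Ldhb, the lactate dehydrogenase subunit of oxidative tissues, was at 21.8 and 18.8 TPM (naïve ESCs), 32.5 and 31.8 (AKO), 111 and 126 (GKO) and 33.9 and 29.4 (DKO). GKO stood apart from the other lines, AKO and DKO had similar levels, and naïve ESCs were lowest. Ldhb rose by 0.64 in AKO (SE 0.09, adjusted p = 0.0242) and fell by 1.87 in DKO (SE 0.09, adjusted p = 5.21e-06). Lamb1, a laminin chain of basement membranes, rose by 0.56 and fell by 0.55, and Emb, embigin, an escort of monocarboxylate transporters, rose by 0.54 and fell by 0.53, so that their differences in 4 against 4 were 0.00. In the other direction Uap1l1 went from 5.68 and 5.26 TPM in naïve ESCs to 3.24 and 3.20 TPM in AKO, and from 2.23 and 2.16 TPM in GKO to 5.46 and 5.51 TPM in DKO. It fell by 0.62 (SE 0.06) and rose by 1.02 (SE 0.06). Klhl22, an adaptor of a CUL3 ubiquitin ligase, fell by 0.57 in AKO and rose by 0.90 in DKO. Dnajc5g fell by 0.55 in AKO and was at 0.851 and 0.899 TPM in DKO, while GKO was listed at 0 and at 0.026 TPM. In AKO, the calls of Ldhb, Lamb1, Emb, Uap1l1 and Dnajc5g were each lost without any naïve or AKO library (adjusted p up to 0.153, 0.121, 0.113, 0.121 and 0.132), and that of Klhl22 in 12 alternatives, among them the omission of any library other than AKO library 1 (adjusted p up to 0.219).

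Positions of the genes called the same way were uneven. Of the 20 rises 11 lay on chromosome 12, which holds 413 of the tested genes (3.42%), and of the 36 falls 7 lay on chromosome 14, which holds 399. The chromosome 12 genes were Fos, Susd6, Mgat2, Togaram1, Vrk1, Cdca4, Actn1, Bzw2, Sypl, Tmed10 and Cfl2, and those on chromosome 14 were Stk24, Zic5, Abcc4, Tm9sf2, Ipo5, Ubac2 and Spry2. Vrk1, a kinase of chromatin, was at 26.1 and 25.9 TPM (naïve ESCs), 31.4 and 32.2 (AKO), 19.9 and 19.7 (GKO) and 35.9 and 35.7 (DKO), and rose by 0.28 and 0.82. Stk24, a kinase of the STE20 family, was at 18.5 and 18.2 TPM (naïve ESCs), 12.4 and 13.6 (AKO), 30.9 and 31.8 (GKO) and 18.5 and 17.9 (DKO). It fell by 0.46 in AKO (SE 0.05, adjusted p = 0.0122) and by 0.75 in DKO (SE 0.05, adjusted p = 1.93e-05), and in AKO not without any naïve or AKO library (adjusted p up to 0.132, from 0.00620). Within 1 Mb of Prkaa1, its tested neighbours Ptger4, Rpl37 and Ttc33 were not called the same way.

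The whole of chromosome 12 was shifted in AKO. Its tested genes had a median difference of 0.15 from naïve ESCs and 91.8% of them were higher in AKO, where the median over all tested genes was -0.01 and 47.5% were higher. All 23 calls on chromosome 12 in AKO were rises, out of 54 rises. In DKO against GKO its median was 0.12 with 67.3% higher, with the highest medians of 10 Mb segments between 100 and 120 Mb (0.61 and 0.64, against 0.18 and 0.12 in AKO). There GKO lay below naïve ESCs by 0.44 and 0.50 and DKO above them by 0.22 and 0.20. Between 0 and 30 Mb the medians in DKO against GKO were 0.19, 0.18 and 0.30. On chromosome 14 the median was -0.01 in AKO and -0.10 in DKO against GKO, but GKO and DKO lay above naïve ESCs by 0.47 and 0.36. Its last segment, between 120 and 130 Mb with 17 tested genes, had a median of -0.32 in AKO and -0.09 in DKO. There lay 5 of the falls shared by both pairs, namely Stk24, Zic5, Tm9sf2, Ipo5 and Ubac2. Other chromosome medians in DKO against GKO were -0.15 on chromosome 6, 0.12 on chromosome 19 and -0.07 on the X chromosome, against -0.02, 0.00 and 0.03 in AKO. The X chromosome was not shifted as a whole, since the segments that start at 90, 100, 130 and 140 Mb had medians of -0.68, -0.58, -0.55 and -0.69 in DKO against GKO, and those between 0 and 80 Mb had medians from 0.03 to 0.25. Without chromosomes 12 and 14, a choice made after seeing the data, 4 genes rose and 22 fell in both pairs, and 26 of the 37 same-way genes that were on other chromosomes or had no position remained. With each chromosome centred on its median in each library, also chosen after seeing the data, 12 rose and 35 fell, 40 of them among the 56, and all 10 chromosome 12 genes other than Fos were lost, as was Spry2 on chromosome 14. Such centring leaves a shift of a single segment in place. It therefore could not test the falls between 120 and 130 Mb of chromosome 14. The part of chromosome-wide shifts in the shared changes was not tested beyond these values, and a change of chromosome content and an effect of AMPK loss cannot be told apart where they coincide with the line.

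**Figure D3:**
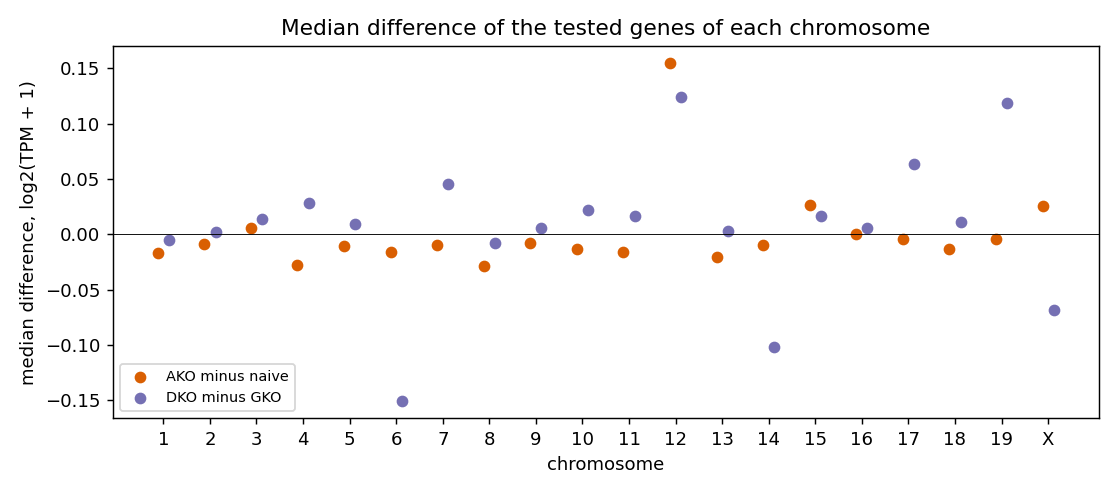
Median difference in log2(TPM + 1) of the tested genes of each chromosome in AKO against naïve ESCs and in DKO against GKO. Among the autosomes chromosome 12 has the highest median in both pairs, 0.15 and 0.12, while chromosomes 6, 14 and 19 depart from 0 in DKO against GKO only.

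Genes of the Y chromosome separated the pairs from each other. The 9 listed Y-linked genes summed to 0 TPM in all libraries of naïve ESCs and AKO, and to 55.0 and 51.0 TPM in GKO and 67.8 and 65.2 TPM in DKO, where Eif2s3y was the most abundant and Sry was listed at 0 in all 8 libraries. The partners within a pair were therefore alike in whether Y-linked transcripts were present, and the pairs were not. The level differed between GKO and DKO, with the higher sum in DKO. Of the 4 tested Y-linked genes 0 were called in AKO and 2 rose and 1 fell in DKO (medians 0.00 and 0.55). Beside the lists here, 0.448% of all tested genes rose and 0.638% fell in AKO and 27.5% rose and 25.9% fell in DKO. Of 11 tested X-linked multicopy germline genes 1 rose and 5 fell in AKO and 4 rose and 4 fell in DKO (medians -0.45 and 0.12). Their values are uncertain, since near-identical copies share reads. Of 16 germline genes repressed by DNA methylation 0 were called in AKO and 0 rose and 14 fell in DKO (medians 0.08 and -0.52), among them Ddx4, a germ cell helicase, by 1.54 and Sycp3, a protein of the meiotic chromosome axis, by 1.53. The part of the Y-linked genes in these results was not tested.

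Marker genes of cell types were summed in each library, and their calls are given beside those of all tested genes (0.448% higher and 0.638% lower in AKO, 27.5% and 25.9% in DKO). Lists of this size would hold few or no calls at the AKO shares. The 8 ESC markers summed to 3684 and 3513 TPM (naïve ESCs), 3727 and 3744 (AKO), 3600.5 and 3823 (GKO) and 3961 and 4230.3 (DKO), with Dppa5a the most abundant. The sum was highest in DKO, and of the 8 tested 0 were called in AKO and 3 rose in DKO (medians 0.03 and 0.13). The 10 fibroblast or feeder markers summed to 7.07 and 6.76 TPM (naïve ESCs), 7.07 and 6.47 (AKO), 10.5 and 11.8 (GKO) and 4.95 and 4.45 (DKO), led by Thy1. Of 5 tested, 0 were called in AKO and 3 fell in DKO (medians 0.00 and -0.33). The 8 neural markers summed to 63.3 and 65.1 TPM (naïve ESCs), 52.2 and 54.1 (AKO), 104 and 103 (GKO) and 72.8 and 75.6 (DKO), most of it Tubb3, and of 6 tested 0 rose and 1 fell in AKO and 1 rose and 2 fell in DKO (medians -0.02 and -0.08). The 18 primitive endoderm genes summed to 260.0 and 252 TPM (naïve ESCs), 231 and 237 (AKO), 267 and 265 (GKO) and 271 and 292 (DKO), led by Apoe, and of 9 tested 1 rose and 0 fell in AKO and 1 rose and 4 fell in DKO (medians -0.04 and -0.17). No marker of the ESC, fibroblast, neural or primitive endoderm lists was at 0 in all 8 libraries. In bulk RNA, fewer cells of a type and less RNA per cell cannot be told apart, and the part of these markers in the results was not tested.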

How the data were processed

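The authors trimmed reads with Trim Galore (0.6.6 per the labels' processing notes), aligned them with STAR and estimated abundance with RSEM (1.3.3), and deposited TPM per gene for each library. The sources name more than 1 STAR version and genome build, so neither is given here. The 21853 listed genes were filtered to the 12060 that reached 1 TPM in 2 or more of the 10 libraries, and their deposited TPM were taken to log2(TPM + 1). Of 26 symbols listed more than once, the entry with the highest mean kept the plain symbol. The tests used limma 3.58.1 under R 4.3.3 with an intensity trend and Benjamini-Hochberg adjustment over all tested genes, at an adjusted p of 0.05. The 4 against 4 comparison was fitted with 2 group means. AKO against naïve, DKO against GKO and their difference came from 1 fit of the 8 libraries with a mean per line. An exact test by rank of a pair of lines cannot give a p below 0.333.

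Named genes were the 10 rises and 10 falls with the largest smaller pair difference among genes of the same sign in both pairs, without overlap in either pair and with a mean of at least 5 TPM in a line. The AMPK subunits, Gys1, members of 29 gene lists called in 4 against 4 or the same way in both pairs, the 3 genes of each kind with the largest smaller difference in opposite ways, and called neighbours within 1 Mb of Prkaa1 were added. Other genes in the text were chosen after their values were seen. The lists covered the AMPK pathway (subunits, upstream regulators, related kinases, substrates), metabolism, stress, pluripotency, lineages, signaling targets, imprinted, germline and sex-linked genes, and cell type markers. Members and lists were chosen with earlier results of these data known. Positions came from GENCODE vM39 on GRCm39 and were found for 97.9% of the tested genes, and promoters from RefSeq on GRCm38.p6. Alternatives were another pseudocount, filter, scaling, prior, block or set of libraries, and each library left out in turn.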

Additional observations from a re-analysis of the deposited data

Results flagged for a closer look

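These results differed between the pairs by the test of the difference, (DKO - GKO) minus (AKO - naïve), in limma at an adjusted p under 0.05. Each value is that difference on the log2(TPM + 1) scale. Among genes of the same direction in both pairs, the difference was -0.97 for Prkaa1, -0.73 for Id1, -0.55 for Cotl1, -1.34 for Peg10, -1.34 for Cdkn1c, -0.89 for Il17d, -0.44 for 1700013H16Rik, -0.29 for Stk24, -0.99 for Zic5, -0.90 for Cdx1 and -0.18 for Tubb3, all of which were lower by more in DKO. Spry2 differed by 0.28, having fallen by less in DKO. Catip differed by 1.31, Ccng1 by 0.36 and Trp53inp1 by 0.72, with the larger rise in DKO. Of the AMPK subunits, Prkab2 differed by 0.41 and Prkag2 by -1.01. Among genes called in opposite ways, Ldhb differed by -2.51, Lamb1 by -1.11, Emb by -1.07, Uap1l1 by 1.64, Klhl22 by 1.47 and Dnajc5g by 1.44.

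Why the pairs differed was not tested.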

How the results depend on the processing

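In 4 against 4, limma called 0 genes under the alternatives other than 48 with Gys1 status as a covariate. The average of both pair differences is another measure, with a spread taken only from the libraries within lines. It called 4967 genes, and 3594 with all 10 libraries in the fit. In AKO against naïve ESCs the count of 131 became 72 with no filter on low values, 205 with a mean of at least 5 TPM, 80 with TPM rescaled to the same sum, 84 with no intensity trend, 27 with all 10 libraries, 61 without chromosomes 12 and 14 and 1 (without AKO library 2) to 74 (without either DKO library) with a library left out. The count of 56 the same way became 32, 91, 34, 37, 12, 26 and 0 to 32 under the same changes, in that order. The numbers of the libraries do not pair them, since deviations of same-numbered libraries correlated between -0.12 and 0.05 over 12060 genes, and with the replicate block the counts were 62 in AKO and 26 the same way. Counts in DKO against GKO and of the difference between the pairs kept within 1.5 times, at 4622 to 6499 and 3116 to 4538. Of the 56 genes 9 were called under every alternative that tested them, other than leaving out a library. Among these, Gfra4 was too low to be tested with a mean of at least 5 TPM. Stk24, Tm9sf2, Ipo5 and Ubac2 lie between 120 and 130 Mb of chromosome 14, where the median of 17 tested genes was -0.32 in AKO. They were not tested without chromosomes 12 and 14, and centring each chromosome leaves a shift of that segment in place. Each of the 56 was lost in some fit that left out a library. The causes were not tested.

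Values that changed sign were near 0 or of genes with opposite changes. In 4 against 4, Emb was at -0.00755 with a pseudocount of 0.1, -0.00802 with quantile normalization, -0.000638 with median-ratio scaling, -0.0310 with the same sum and -0.222 to 0.221 with a library left out. Lamb1 was at -0.0107, -0.00636, -0.00294, -0.0323 and -0.163 to 0.166 in the same order. Prkaa2 was at -0.00668 with the same sum and -0.0370 to 0.0776 with a library left out, Klhl22 at -0.118 to 0.503 and Dnajc5g at -0.334 to 0.683. In DKO against GKO, Prkaa2 was at 0.0191 with quantile normalization and -0.0613 to 0.00337 with a library left out. Depth is unknown, so the precision of low values is too.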
